A study of Mus musculus with 6 samples.

Results

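Orphan nuclear receptors of the developing cortex were followed across 6 single mouse embryos: Rora, Rorb, Nr2f1, Nr2f2, Nr2f6, Nr2e1 and Nr4a2. These 7 genes were taken by symbol from the authors' deposited table of the series, which pairs them with 10 of its 27269 probes. The table names 17191 genes in all. Rorb, Nr2f1 and Nr4a2 have 2 probes each and the other receptors 1. Rora and Nr2f2 were listed because their levels differed between the groups in these same arrays, so their differences are given as a description, with no test. The others were not listed for a change, and the test across all probes is given for them.

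The tissue was dorsal forebrain of E11.5 embryos (E for embryonic day), narrowed to the dorso-medial pallium in the series' design text, dissected from time-mated mice and measured on 1-colour (Cy3) Agilent arrays of total RNA. There were 3 control and 3 mutant embryos, and each of 3 litters gave a control and a mutant. The labels name the genotypes as control and mutant only. The mutated gene, its alleles, what deletes or drives it and the strain are not given in the sources used here. The series title places the work within Wnt/b-catenin signalling in cortical precursors. Each sample is a whole dissected piece, so fewer cells of a type and less RNA per cell cannot be told apart.

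Nuclear receptors are transcription factors that bind DNA through a zinc-finger domain and carry a ligand-binding domain that recruits coactivators or corepressors. Orphan receptors were named before any ligand was known for them. Rora and Rorb bind as monomers to a half-site preceded by an A/T-rich stretch. Rora is required for Purkinje cells of the cerebellum and activates clock genes, and Rorb is known for layer 4 of the cortex and for the retina. Nr2f1 and Nr2f2, the COUP-TF proteins, mostly repress. Nr2f1 patterns cortical areas and is graded from high caudolateral to low rostromedial levels, while Nr2f2 is known from the caudal ganglionic eminence, the caudal pallium, mesenchyme and veins. Nr2f6 is their close relative. Nr2e1, also called Tlx, maintains neural stem cells as a repressor, and Nr4a2, also called Nurr1, specifies dopaminergic neurons and marks the subplate and claustrum in the cortex.

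The promoters of Rora and Nr2f2 are shown because these receptors had the lowest and one of the higher differences among the 7, and because the series concerns a pathway that acts through TCF/LEF factors. The windows hold the 250 bases before the RefSeq start in GRCm38.p6, 5′ to 3′ on the gene's strand. Capitals mark a TCF/LEF core, searched as CTTTGAT or CTTTGAA on both strands.
Rora, chr9:68653536-68653785, plus strand: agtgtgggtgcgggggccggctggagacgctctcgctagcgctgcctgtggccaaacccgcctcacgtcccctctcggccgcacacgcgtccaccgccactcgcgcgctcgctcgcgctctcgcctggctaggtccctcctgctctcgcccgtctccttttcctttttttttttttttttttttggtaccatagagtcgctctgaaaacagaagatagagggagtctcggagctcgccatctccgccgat
Nr2f2, chr7:70366747-70366996, minus strand: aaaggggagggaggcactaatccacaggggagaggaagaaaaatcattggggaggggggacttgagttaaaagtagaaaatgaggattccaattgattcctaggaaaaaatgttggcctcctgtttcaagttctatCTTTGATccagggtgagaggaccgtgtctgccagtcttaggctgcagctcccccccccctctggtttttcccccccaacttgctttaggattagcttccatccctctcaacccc
The window of Nr2f2 holds CTTTGAT at position -114 from the start, and that of Rora holds neither form. Of the 9 windows that RefSeq gives for the 7 receptors, 1 has such a match, against 7.48% of 32851 windows of all genes. The receptor half-site AGGTCA, searched on both strands, is in 0 of the 9 and in 14.0% of all windows. A match is a description of letters and not a bound site.

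Depth and background come first, since 2 of the receptors are dim. Spots well above background made up 68.7% to 70.1% of each control array but 65.8% to 67.9% of each mutant array, and no spot was saturated. All 10 receptor probes were well above background on all 6 arrays. Levels are log2 processed signal minus the array's own 75th percentile, and differences are mutant minus control on that scale. Before logs, this percentile ranged from 1446 to 1833 over control arrays and from 1207 to 1380 over mutant arrays. Every mutant array was thus dimmer than every control array, and the part of this in the differences of dim probes was not tested. The median spot signal of Rora was 5.29 to 14.8 times its local background and that of the Rorb probes 7.94 to 31.1 times, whereas the other receptors lay between 34.5 and 5816 times. The number of arrays, 3 a group, limits the precision of every value.

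Rora was lower in every mutant. Its level was -2.88, -2.88 and -2.91 in controls 1, 2 and 3 and -3.91, -4.0 and -4.15 in mutants 1, 2 and 3. The controls lay close together (SD 0.01, against 0.12 in mutants), and the groups did not overlap. The difference was -1.13 (SE 0.08), a 2.19-fold lower signal, and within litters 1, 2 and 3 it was -1.03, -1.12 and -1.24. The scanner's processed signal, before scaling, was 249, 201 and 193 in the controls and 87.7, 86.3 and 68.0 in the mutants, whose arrays were dimmer as a whole. With normexp on the median signal and an offset of 50 the difference was -0.70, and the authors' deposited table lists a log2 ratio of -1.04. The probe lies on chromosome 9 from 69226774 to 69226833 in mm9, the build of the array.

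Rorb, the close relative of Rora, had positive differences. Its brighter probe was at -2.72, -2.77 and -3.51 in controls 1, 2 and 3 and at -2.46, -2.09 and -1.58 in mutants 1, 2 and 3. The difference of 0.96 (SE 0.30, 95% interval 0.21 to 1.71) did not pass the test over all probes (limma, adjusted p = 0.234). Control 3 was the lowest embryo and its littermate mutant 3 the highest, so that litters 1, 2 and 3 gave 0.26, 0.68 and 1.93. The dimmer probe read -2.97, -3.19 and -3.73 in controls 1, 2 and 3, while mutants 1, 2 and 3 read -2.93, -2.68 and -2.17, giving a difference of 0.70 (SE 0.27, adjusted p = 0.286). Its litter 1 value was 0.04, and mutant 1 stood barely above control 1. After scaling, all 3 mutants lay above the controls on both probes, as they did for 12.3% of all probes. Before scaling the groups overlapped on both. There the processed signal of the brighter probe was 278 in control 1 and 240 in mutant 1, and that of the dimmer probe 234 and 173. Leaving out mutant 3 took the differences to 0.73 and 0.49, and leaving out control 3 to 0.70 and 0.49. The probes lie on chromosome 19 in mm9, from 19006883 to 19006942 (brighter) and from 19012149 to 19012208.

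**Figure D1:**
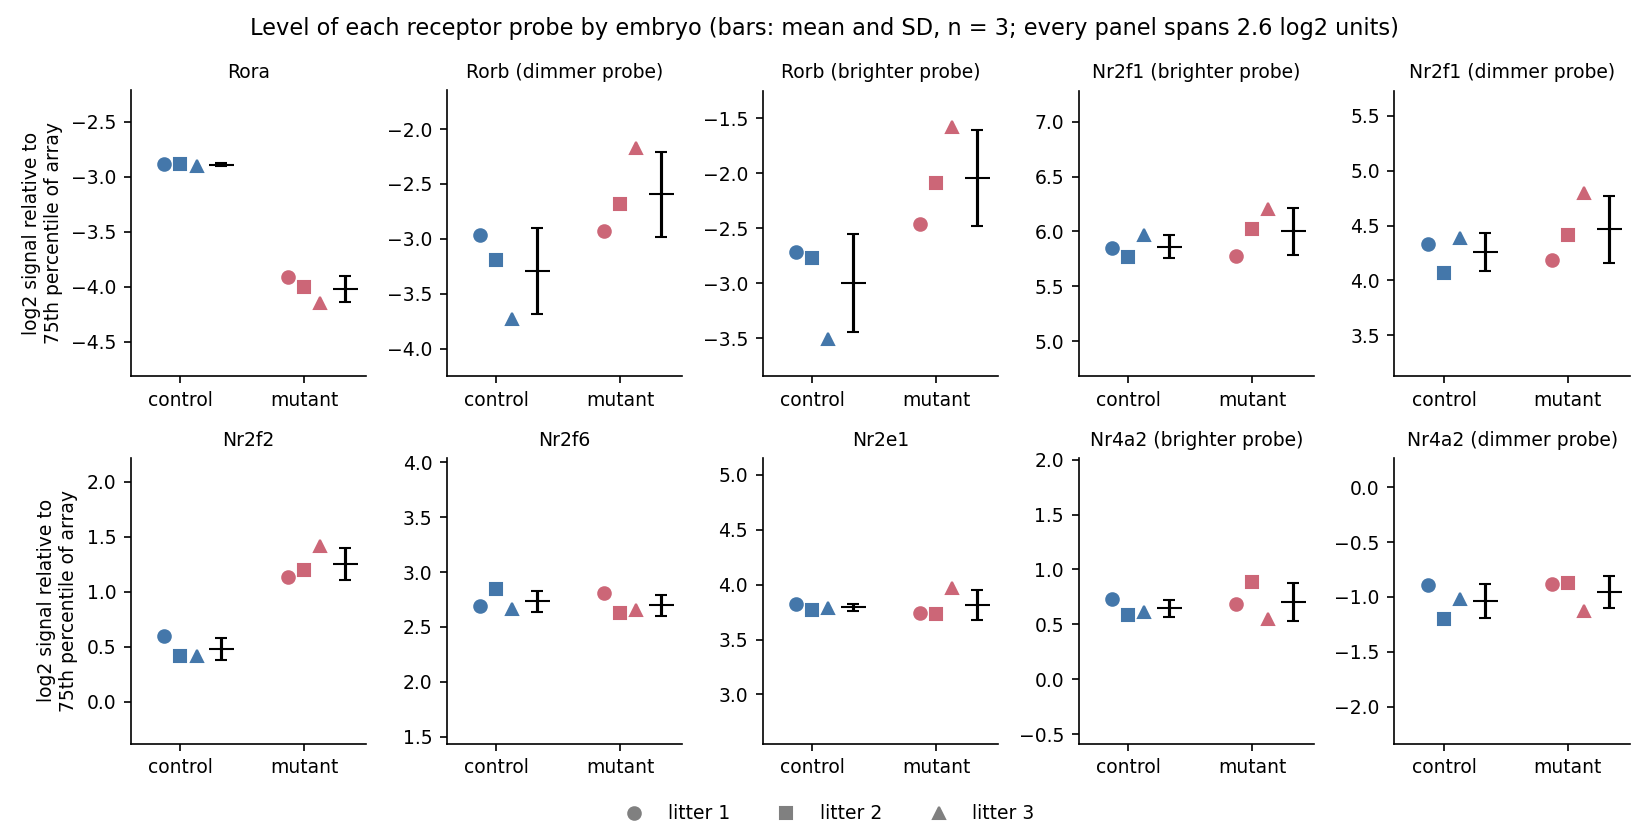
Level of each of the 10 probes in every embryo, as log2 signal relative to the 75th percentile of the array (y axis), for controls and mutants (x axis). Symbols give the litter, bars the group mean and SD (n = 3). Rora lies at -2.88 to -2.91 in controls and -3.91 to -4.15 in mutants, Nr2f2 at 0.42 to 0.59 and 1.13 to 1.42, and the groups of Nr2f1, Nr2f6, Nr2e1 and Nr4a2 overlap.

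Nr2f2 was higher in every mutant. It was measured at 0.59, 0.42 and 0.42 in controls 1, 2 and 3 and at 1.13, 1.20 and 1.42 in mutants 1, 2 and 3. The lowest mutant lay above the highest control, and the SD was 0.10 in controls and 0.15 in mutants. The difference was 0.77 (SE 0.10), a 1.71-fold higher signal, and 0.54, 0.78 and 1.0 within litters 1, 2 and 3. It was 0.72 with normexp and 0.74 in the authors' deposited table. The probe lies on chromosome 7 from 77496873 to 77496932 in mm9.

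Nr2f1, the paralogue of Nr2f2, had no called difference. Its brighter probe was at 5.85, 5.76 and 5.97 in controls 1, 2 and 3 and at 5.78, 6.02 and 6.20 in mutants 1, 2 and 3, and the groups overlapped. The difference of 0.14 (SE 0.13, 95% interval -0.17 to 0.46) did not pass (limma, adjusted p = 0.617). The dimmer probe gave 0.20 (SE 0.18, 95% interval -0.24 to 0.64, adjusted p = 0.603). On both probes mutant 1 was below control 1 (-0.06 and -0.15), while litters 2 and 3 gave positive values between 0.23 and 0.41. Without mutant 3 both differences were 0.04. The probes lie on chromosome 13 in mm9, from 78328723 to 78328782 (brighter) and from 78328290 to 78328349. The difference between Nr2f1 and Nr2f2 in their response was not tested.

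Nr2f6, the relative of both, had overlapping groups as well. It was at 2.69, 2.85 and 2.67 in controls 1, 2 and 3 and at 2.81, 2.63 and 2.66 in mutants 1, 2 and 3. The difference was -0.04 (SE 0.09, 95% interval -0.25 to 0.18, limma, adjusted p = 0.867). Its probe lies on chromosome 8 from 73898098 to 73898157 in mm9.

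Nr2e1, the stem cell receptor, was at 3.83, 3.77 and 3.79 in controls 1, 2 and 3 and at 3.74, 3.73 and 3.97 in mutants 1, 2 and 3. Mutants 1 and 2 lay below the controls and mutant 3 above them. The difference was 0.02 (SE 0.09, 95% interval -0.20 to 0.24, limma, adjusted p = 0.927), so a change of more than 0.24 in either direction lay outside the interval. It was below 0 with normexp (-0.0365) and with median centring (-0.0666). The probe lies on chromosome 10 from 42281826 to 42281885 in mm9.

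Nr4a2 was at 0.73, 0.59 and 0.61 in controls 1, 2 and 3 and at 0.68, 0.88 and 0.54 in mutants 1, 2 and 3 on its brighter probe. Mutant 2 was the highest embryo and mutant 3 the lowest. The differences were 0.06 (SE 0.11, 95% interval -0.21 to 0.32, limma, adjusted p = 0.819) and, on the dimmer probe, 0.08 (SE 0.12, 95% interval -0.21 to 0.37, adjusted p = 0.772). With median centring they were -0.0291 and -0.0088. The probes lie on chromosome 2 in mm9, from 56960699 to 56960758 (brighter) and from 56959637 to 56959696.

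**Figure D2:**
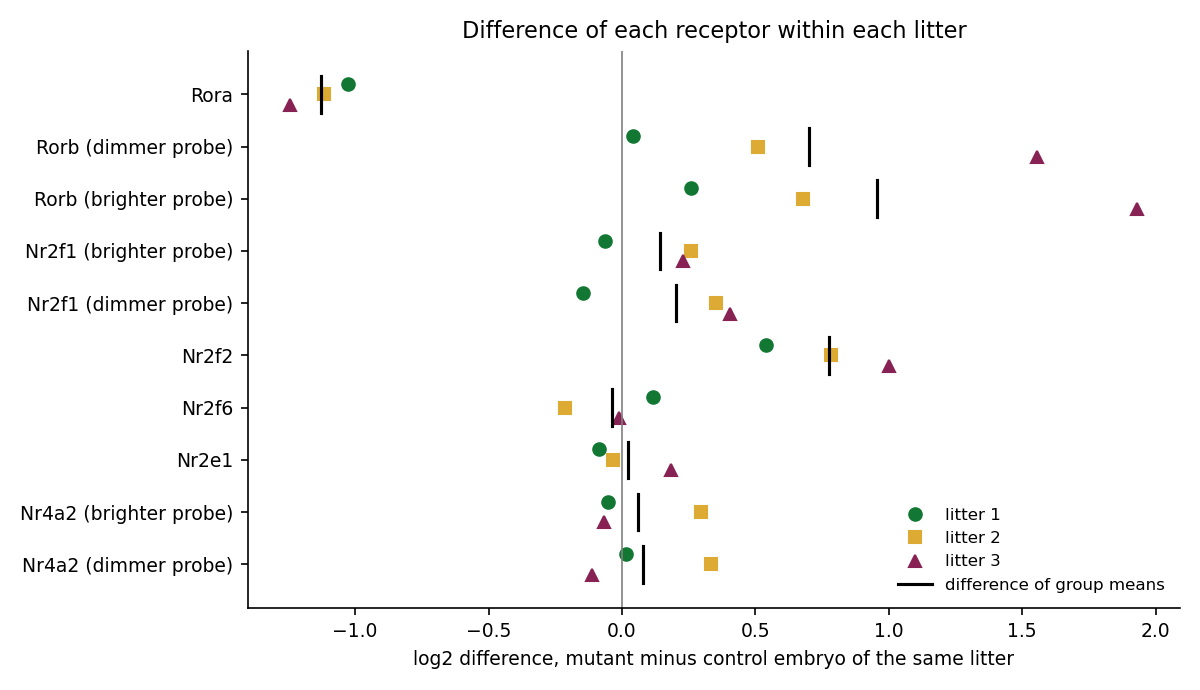
Log2 difference between the mutant and the control of each litter (x axis) for the 10 probes (y axis), with symbols for litters 1, 2 and 3 and a black line at the difference of group means. Rora is negative in every litter (-1.03 to -1.24) and Nr2f2 positive (0.54 to 1.0), while Rorb runs from 0.04 to 1.93 and Nr2f1 changes sign in litter 1.

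The embryos of litter 1 were on slide 1 and the other 4 embryos on slide 2, so litter 1 also gives the values of its slide. On slide 2 alone, with 2 embryos a group, the differences were -1.18 for Rora, 1.31 and 1.03 for Rorb, 0.24 and 0.38 for Nr2f1 and 0.89 for Nr2f2.

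On scaled levels the receptors thus fell into those whose groups lay apart (Rora, Rorb and Nr2f2) and those whose groups overlapped (Nr2f1, Nr2f6, Nr2e1 and Nr4a2). Groups did not overlap for 24.3% of all 26849 probes tested, and since Rora and Nr2f2 were chosen on this contrast nothing is read from the share among the 7. Over all probes 7 passed (0.0261%), 2 of them higher (0.00745%) and 5 lower (0.0186%). With median centring, 28 passed, 5 of them higher, and with normexp 154 passed, 78 of them higher. With litter as a block, which pairs the embryos, 0 passed (5144 at an unadjusted p under 0.05 in limma), 0 passed with slide as a block (5115) or without a filter on dim probes (9411), and leaving out 1 embryo left 0 to 2. Mutant 3 was the highest embryo on both probes of Rorb and Nr2f1 and for Nr2f2 and Nr2e1, and the lowest for Rora. The SD within controls ran from 0.01 for Rora to 0.44 for the brighter Rorb probe, and within mutants from 0.09 for Nr2f6 to 0.44 for the same Rorb probe.

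Markers of the dissected region and of other cells were compared by embryo. The 6 defining genes of the dorsal forebrain (among them Emx1, Emx2, Pax6, Lhx2 and Neurog2) were above background on all arrays, with a summed level, in units of the array's 75th percentile, of 127 to 137 in controls and 112 to 126 in mutants. Named after their values were seen, Emx1 (-0.81), Emx2 (-0.92) and Lhx2 (-0.58) were lower in every mutant and Pax6 (0.33) higher, with none past the test over all probes. The median of the 6 stood -0.40, -0.23 and -0.13 from the control mean in mutants 1, 2 and 3, and the part of this in the receptors' values was not tested. The 12 neuronal markers had summed levels of 66.7 to 71.7 and 75.9 to 106. The median neuronal marker stood 0.11, -0.0033 and -0.10 from the control mean in controls 1, 2 and 3 and 0.09, 0.44 and 0.63 in mutants 1, 2 and 3. Its order within each group is that of Rorb, with control 3 lowest and mutant 3 highest. Control 3 was also lowest and mutant 3 highest in the summed subpallial and diencephalic markers, whose ranges follow below. The part of neurons in the Rorb and Nr2f2 values was not tested.

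Cells outside the neuroepithelium also varied, some of them types known for Nr2f2. The 12 markers of meninges and head mesenchyme had summed levels of 20.9 to 30.7 in controls and 15.2 to 44.5 in mutants, with medians of 0.89, -0.20 and -0.66 in mutants 1, 2 and 3. Nr2f2 was highest in mutant 3, where these markers were lowest, and the part of mesenchyme in its values was not tested. The 10 endothelial markers had summed levels of 15.4 to 18.1 and 13.3 to 19.9. Of 14 subpallial markers 13 were tested (Nkx2-1 was not above background on 3 arrays), with summed levels of 2.25 to 8.83 in controls and 11.4 to 14.8 in mutants. Control 3, the lowest, had a median of -2.05 against 1.09 and 0.86 in controls 1 and 2, and the medians of mutants 1, 2 and 3 were 1.34, 0.85 and 1.94, so the medians overlapped. The sum of mutant 2 was carried by Lhx6, also named after its values were seen (2.28, against 0.47 in control 2), whose other probe had a difference of -0.23 between the groups. Of 11 markers of the diencephalon and thalamic eminence 7 were tested, with summed levels of 1.26 to 1.36 and 1.60 to 1.76, and Barhl2, Shox2 and Sim1 were among those not above background on 3 arrays. The neuronal, subpallial and diencephalic sums all lay higher in every mutant, as Nr2f2 and Rorb did. The neuronal medians overlapped, however, with mutant 1 at 0.09 and control 1 at 0.11. The neuronal sum of mutant 1 over control 1 was carried by Snap25, named after its values were seen (2.88 against 1.69). The part of the endothelial, subpallial and diencephalic markers in the Nr2f2 and Rorb values was not tested.

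**Figure D3:**
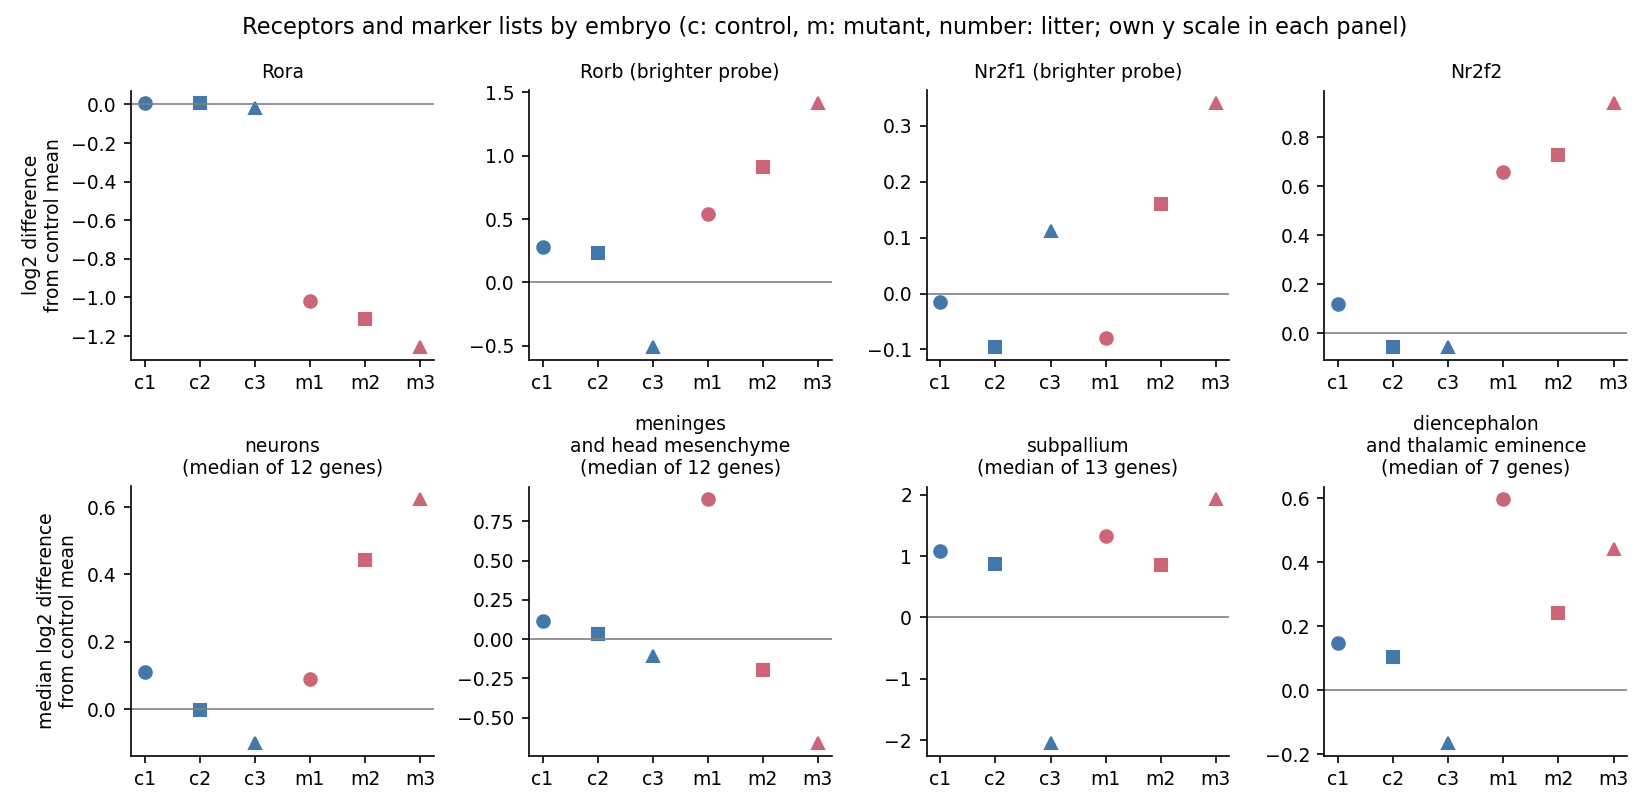
Log2 difference from the control mean (y axis) in each embryo (x axis, c for control, m for mutant, number for litter) for 4 receptors (top) and the median of 4 marker lists (bottom). The neuronal median is 0.44 and 0.63 in mutants 2 and 3, mesenchymal markers peak at 0.89 in mutant 1, and control 3 is at -2.05 for subpallial markers.

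Summed levels of the remaining lists overlapped between the groups. They were 4.86 to 5.33 in controls and 5.08 to 6.22 in mutants for 8 Cajal-Retzius markers, 2.70 to 3.17 and 2.03 to 3.41 for 9 microglial markers, and 659 to 754 and 459 to 742 for 8 erythroid markers. Those of the choroid plexus (5 of 8 tested, with Ttr, Kcne2 and Kl not above background on 3 arrays) were 0.89 to 2.93 and 2.28 to 4.15.

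In the rest of the receptor family no gene passed. Of 42 other nuclear receptors, 28 were tested, and 14 were not above background on 3 arrays, among them Thrb, Esr1, Pgr, Vdr and Hnf4a. In limma, 0 of the 28 passed, with 4 higher and 2 lower at an unadjusted p under 0.05 (16.4% of all probes had such a p). The median difference was 0.08, against 0.02 over all probes. It was 0.13 without control 2 or without mutant 3 and -0.0046 with median centring. On the higher side the smallest p values were those of Ppara, a fatty-acid receptor (0.30, SE 0.07, adjusted p = 0.173, with its other probes at 0.74 and 0.60), the glucocorticoid receptor Nr3c1 (0.45, SE 0.12, adjusted p = 0.200, with its other probe at 0.60), the estrogen receptor Esr2 (0.41, SE 0.15, adjusted p = 0.264) and the xenobiotic receptor Nr1i3 (1.24, SE 0.46, adjusted p = 0.272). On the lower side they included those of the clock repressor Nr1d1 (-0.44, SE 0.11, adjusted p = 0.190), the oxysterol receptor Nr1h3 (-0.13, SE 0.08) and the retinoic acid receptor Rara (-0.13, SE 0.10). The other probe of Nr1h3 was at -0.18 and that of Rara at -0.03. Nr1d1 is dim, and with normexp it was at 0.01.

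**Figure D4:**
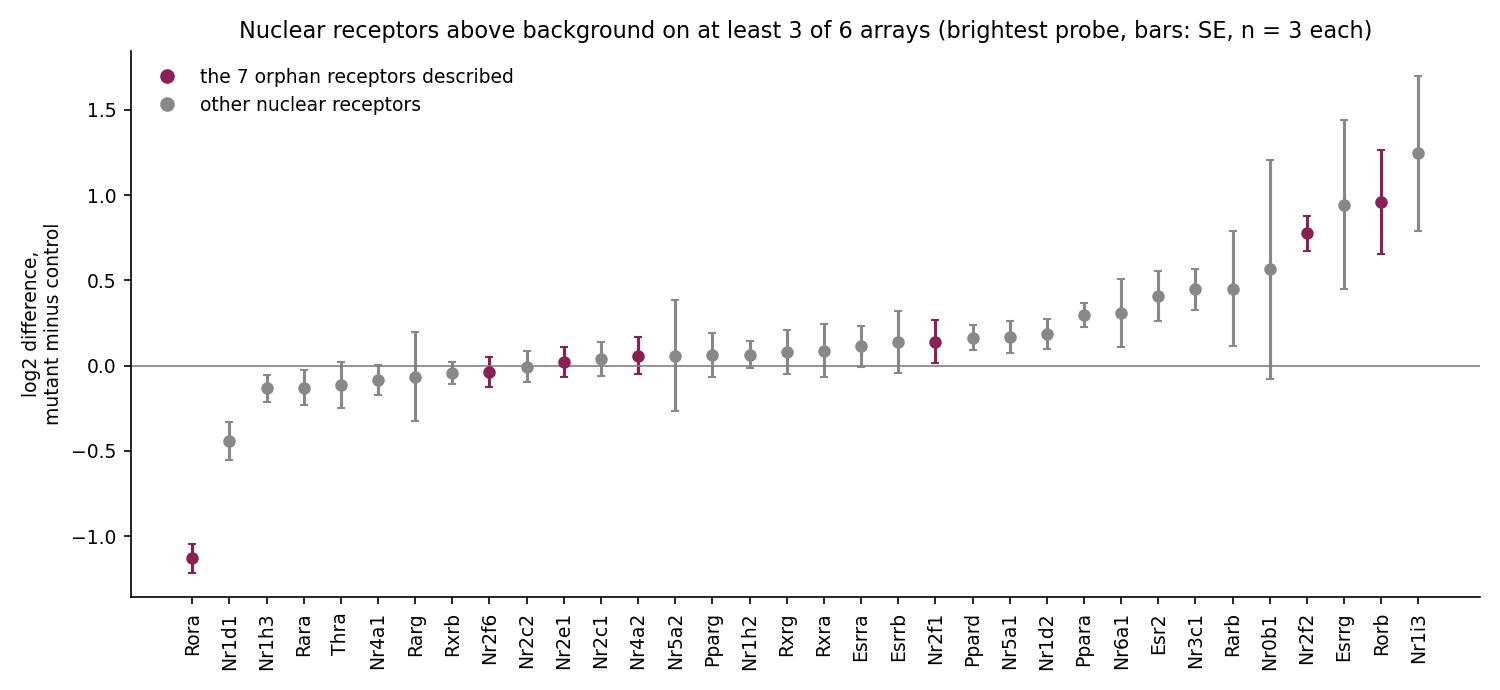
Log2 difference, mutant minus control (y axis, bars give the SE, n = 3 each), of nuclear receptors that were tested and are reported here, in order of size (x axis), with the 7 orphan receptors in dark red. Rora (-1.13), Rorb (0.96) and Nr2f2 (0.77) lie near the ends and the other 4 orphan receptors between -0.04 and 0.14.

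Nr4a1, a relative of Nr4a2 chosen after its values were seen, had a difference of -0.08 (SE 0.09).

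Coregulators that receptors of the wider family bind were measured in full. Of 24 genes 24 were tested and in limma 0 passed. At an unadjusted p under 0.05 in limma, 2 were higher and 0 lower (16.4% of all probes had such a p). The median difference was 0.03. That median was 0.09 without mutant 1, -0.02 without mutant 3 and -0.06 with median centring, so it has no settled sign. The smallest p values were those of the coactivator Ppargc1a (0.70, SE 0.15, adjusted p = 0.157), the COUP-TF-interacting protein Bcl11b, also a marker of deep-layer neurons (0.35, SE 0.09, adjusted p = 0.200), and the coactivator Ncoa1 (0.22, SE 0.09, adjusted p = 0.321). The corepressor Ncor1, chosen after its values were seen, was at 0.02 (SE 0.07), with its other probes at -0.10 and 0.18.

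Genes that pattern cortical areas, the process in which Nr2f1 acts, had differences in both directions. Of 14 genes 13 were tested (Fgf17 was not above background on 3 arrays). In limma 0 passed, with 3 higher and 6 lower at an unadjusted p under 0.05 (16.4% of all probes had such a p). The median difference was -0.23, against 0.02 over all probes, but -0.0024 with normexp. With 7 genes below 0 and 6 above, the median was the value of 1 gene, dim and with overlapping groups. Groups lay apart for 6 lower and 4 higher genes of the 13, against 24.3% of all probes. The median was 0.08 without mutant 1 and 0.08 on slide 2 alone. It was -0.45 without mutant 2, -0.40 without mutant 3 and -0.12 without control 3. The smallest p values were those of the homeobox gene Emx2 (-0.92, SE 0.10, adjusted p = 0.0706), the zinc-finger factor Sp8 (-0.74, SE 0.09, adjusted p = 0.0921) and the doublesex-related gene Dmrt3 (-1.24, SE 0.16, adjusted p = 0.102). The other Sp8 probe was at 0.03. With normexp, and with a variance trend and robust variance, 4 of the 13 passed, where 0.574% and 0.536% of all probes did.

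The genes whose levels ran most nearly parallel to those of Rora and Nr2f2 were sought among 14912 other named genes, by the root mean square difference of levels centred on each gene's mean over the 6 arrays. Nearest to Rora were Mycn (0.11), a Myc-family oncogene, Lef1 (0.12), a TCF/LEF factor, and Trabd2b (0.12), which inactivates Wnt proteins. Their differences between groups were -1.21, -1.06 and -0.91. Nearest to Nr2f2 were Lrrtm1 (0.04), a synaptic adhesion protein, Sncaip (0.06), which binds alpha-synuclein, and Acss1 (0.07), a mitochondrial acetyl-CoA synthetase, with differences of 0.82, 0.80 and 0.68. The measure takes in the gap between groups, so genes with a like difference come out near. From control 1 to control 3, Rora was flat (-2.88 and -2.91) while Mycn rose from 3.15 to 3.37 and Lef1 from 2.79 to 3.11. From mutant 1 to mutant 3, Rora, Mycn, Lef1 and Trabd2b all fell. The genes named here were picked for this likeness, so the values are a description.

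**Figure D5:**
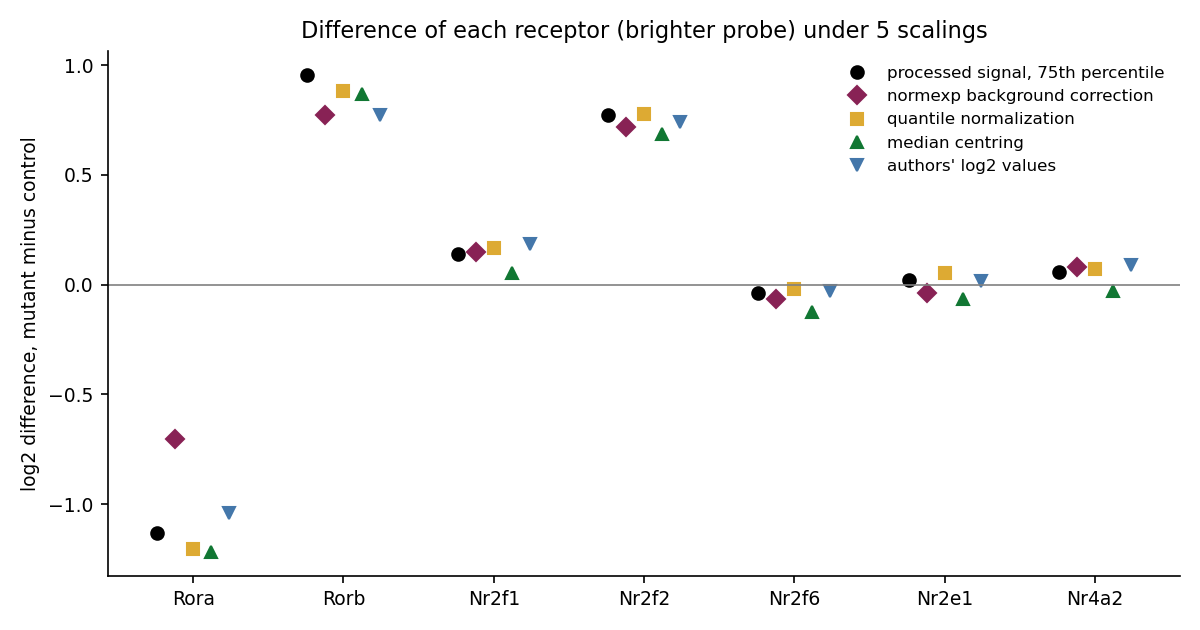
Log2 difference, mutant minus control (y axis), of the brighter probe of each of the 7 receptors (x axis) under 5 ways of processing the arrays, shown by symbol. Rora stays negative (-0.70 to -1.22) and Rorb and Nr2f2 positive, while Nr2e1 and Nr4a2 lie on both sides of 0.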

How the data were processed

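Per the file headers, Agilent Feature Extraction 10.7.3.1 (design 026655, mm9) wrote the linear intensity of every spot after subtracting background, with no scaling across arrays. Flags of 0 or 1 mark which spots stood well above background, were saturated or were outliers. In the authors' deposited table are log2 values, a log2 ratio, a linear ratio, a p-value and an fdr. How it was normalized is not stated, and the submitters' processing notes name limma without a version. Its column numbers do not follow the sample titles, so columns were used by group. The receptors were matched in its Agilent symbol column, since its other symbol column names only Nr4a2 and Nr2f6 among them.

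Outlier spots were left out, log2 processed signals were scaled to the 75th percentile of the 39429 probes' spots, and spots of a probe averaged. Probes well above background on at least 3 arrays with a value on all 6 were kept (26849). limma 3.58.1 in R 4.3.3 (lmFit, eBayes) compared the groups, with Benjamini-Hochberg adjustment over these probes and a threshold of 0.05, two-sided. The fit was tested on simulated data. Python 3.11.15 drew the figures. Lists use the brightest probe of a gene, named by accession (26581 probes) or table symbol (2811).

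The receptors and lists were chosen with earlier results of these data known. Named genes are every receptor probe, 4 other receptors per direction and 3 genes of each other list by smallest p, and the 3 most alike for Rora and Nr2f2. Others are said to be chosen after their values were seen. Some genes that the rule or the lists hold are not reported here, though they stay in the fits and counts.

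Samples are separate embryos. Each title names a litter, and 1 control and 1 mutant came from each, so litters pair the samples (correlation of deviations from group means 0.30, 0.34 and 0.11 in litters 1, 2 and 3, and -0.38 to 0.09 between litters). Slide 1 held litter 1 and slide 2 the other embryos. Alternatives were normexp (offset 50, on the median signal), quantile normalization, median centring, other filters, 1 row per gene, a block for litter or for slide, robust variance with a trend, the authors' values and each embryo left out. Slide 2 alone was added after seeing the data.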

Additional observations from a re-analysis of the deposited data

How the results depend on the processing

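With litter as a replicate block 0 probes passed in limma (5144 at an unadjusted p under 0.05, against 7 passing and 4413), and the block changed no call of the 5 tested receptors. Also 0 passed with slide as a block (5115), on slide 2 alone (4850, added after seeing the data) and without a filter on dim probes (9411). By contrast 19 passed with quantile normalization, 28 with median centring, 25 with the filter on all 6 arrays, 25 with the authors' log2 values, 144 with trend and robust variance and 154 with normexp. Leaving out 1 embryo gave 0 to 2.

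Rora was at -0.70 with normexp, -1.22 with median centring and -1.04 with the authors' values, and Nr2f2 ranged from 0.69 to 0.89 over all alternatives. Nr2e1 reversed with normexp (-0.0365), with median centring (-0.0666) and without mutant 3 (-0.0582), and its values without 1 embryo ran to 0.0629. Nr4a2 reversed with median centring (-0.0291, dimmer probe -0.00878) and without mutant 2 (-0.0317, up to 0.138 without other embryos), its dimmer probe without control 2 (-0.00338, up to 0.162), and Nr2f6 without control 2 (0.0199, down to -0.0897). The brighter Rorb probe stayed between 0.70 and 1.31 (adjusted p from 0.0988 to 0.563) and the dimmer between 0.49 and 1.03 (0.103 to 0.623). Of the area patterning genes, 4 passed with normexp, 4 with trend and robust variance and 1 with the authors' values. The cause was not tested.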
